A study of Mus musculus with 6 samples.

Results

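The AP-1 subunits examined here are the 8 genes *Fos*, *Fosb*, *Fosl1*, *Fosl2*, *Jun*, *Junb*, *Jund* and *Atf3*, taken by symbol from count tables of 23183 gene symbols, and all 8 were found. They were measured by RNA-seq in 6 tumours of UV2237M, a mouse fibrosarcoma line labelled wild type. The 3 untreated tumours had no treatment, and the 3 treated tumours had gold nanoclusters (GNC) on day 1 and day 7 with near-infrared (NIR) irradiation. No group had particles or light alone, so the 2 cannot be told apart. The labels state neither how long after the last irradiation tumours were harvested nor whether each tumour came from its own animal, so p-values measure only the spread between these samples.

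AP-1 is a transcription factor made of a pair of basic leucine zipper (bZIP) proteins. Jun proteins pair with one another or with Fos proteins, whereas Fos proteins need a Jun partner, and Atf3 pairs with Jun proteins or with itself. The pairs bind short DNA elements known as TRE (TGACTCA) and CRE (TGACGTCA) and act on genes of growth, invasion and wound repair. *Fos*, *Fosb*, *Jun*, *Junb* and *Atf3* are known as genes that cells switch on within minutes of growth factors, heat or injury, while *Jund* is known for steady expression.

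The stretches upstream of 5 subunits are shown because these genes are known for fast induction and their start regions can be set side by side. Each line gives the 120 bases before the RefSeq start site on GRCm38.p6, 5′ to 3′ on the gene's own strand, with matches to the searched motifs in capitals.
Fos, chr12:85473770-85473889, plus strand: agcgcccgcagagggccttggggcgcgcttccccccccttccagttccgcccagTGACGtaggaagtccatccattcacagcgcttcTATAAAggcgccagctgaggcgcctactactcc
Fosb, chr7:19310046-19310165, minus strand: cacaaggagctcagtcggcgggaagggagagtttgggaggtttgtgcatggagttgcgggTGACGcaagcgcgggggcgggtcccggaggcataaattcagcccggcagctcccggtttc
Jun, chr4:95052223-95052342, minus strand: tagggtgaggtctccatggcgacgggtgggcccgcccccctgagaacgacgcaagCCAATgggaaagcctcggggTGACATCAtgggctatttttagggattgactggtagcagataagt
Junb, chr8:84978749-84978868, minus strand: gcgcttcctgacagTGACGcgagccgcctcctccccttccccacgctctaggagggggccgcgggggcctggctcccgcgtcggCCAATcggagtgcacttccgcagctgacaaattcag
Atf3, chr1:191183334-191183453, minus strand: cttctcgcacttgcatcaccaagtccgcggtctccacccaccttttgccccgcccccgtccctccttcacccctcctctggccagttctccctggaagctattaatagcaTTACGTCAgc

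Both strands of the 250 bases before the start were searched for the TRE (TGACTCA), the CRE (TGACGTCA) and the first bases of a CRE (TGACG), for the relatives of these found in induced genes, TGACATCA and also TTACGTCA, for the CArG box that the factor SRF binds, for TATAAA and for CCAAT. RefSeq windows were matched for 7 of the 8 genes. TGACG was found in 4 of the 7 (*Fos*, *Fosb*, *Junb* and *Atf3*), against 17.8% of 32851 mouse windows of the same length. In *Fos* it began 66 bases before the start, with a second copy at 129, and a TATAAA began at 33. *Jun* held TGACATCA 45 bases before the start, a motif in 2.93% of all windows. *Atf3* held TTACGTCA 10 bases before the start, in 0.447% of all windows, and its TGACG is the reverse strand of the same bases. TGACATCA and TTACGTCA were searched as motifs known from induced genes, which *Jun* and *Atf3* are, so their shares do not measure how rare these matches are. The share for TGACG does not measure this either, since the mouse windows were not matched for GC content. The windows of *Fos*, *Fosb*, *Junb* and *Atf3* had 58.4%, 68.8%, 66.4% and 65.2% GC. No window of the 7 held a TRE, a CRE or a CArG box, and these were in 4.46%, 1.55% and 1.47% of all windows. Bases further upstream than 250 were not searched, so sites there, also those of *Fos*, would not be seen. CCAAT, which began 65 bases before the start in *Jun* and 36 in *Junb*, was in 33.8% of all windows, and TATAAA in 12.4%. The RefSeq start used for *Jund*, at base 70697739 of chromosome 8, lies at -1210 bases from the GENCODE gene start, upstream of the gene. That of *Atf3*, at base 191183333 of chromosome 1, lies far inside the GENCODE gene, and that of *Fosl2* lies 671 bases inside it. The windows of these genes are thus not the bases next to the GENCODE gene start. A match is a description of these letters only.

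The counts summed to between 4680295 and 8019294 per library, and 12517 genes were tested with edgeR's quasi-likelihood test. That test called 0 genes after Benjamini-Hochberg adjustment (threshold 0.05), with 0.592 as its lowest value. Unadjusted, 416 genes were higher and 607 (4.85%) lower under 0.05. DESeq2 called 18 higher and 39 lower (0.338% of the genes to which it gave an adjusted p), and limma-voom called 0. Untreated 2 stood apart, at a root mean square distance of 1.25 log2 units from the other libraries against 0.634 to 0.755 for each of them. Over 5 bins of transcript GC content its medians ran from 0.77 log2 in the most AT-rich bin to -0.77 in the most GC-rich. The 8 fibroblast and fibrosarcoma markers were all detected and summed to 23640 to 29673 CPM per library (counts scaled to library size with TMM). *Col3a1* alone had 12570 to 22446 CPM of this sum, and *Col1a1* had 59.4 CPM in untreated 2 against 1975 to 4255 CPM in the other libraries.

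*Fos*, the subunit that gave the family its name, had 8.47, 9.37 and 10.7 CPM in untreated 1 to 3 and 19.8, 79.4 and 86.5 CPM in treated 1 to 3, listed here and in what follows in the order of the replicate numbers. The groups did not overlap, and the lowest treated library, treated 1, was 1.86 times the highest untreated one. The untreated tumours were close together (9.51 ± 1.11 CPM, SD, n = 3), whereas the treated ones spread 4.36-fold (61.9 ± 36.6 CPM). The log2 fold change was 2.70 ± 0.54 (SE), a 6.51-fold difference, with an adjusted p of 0.592 in edgeR (unadjusted p = 0.00147) and of 0.00114 in DESeq2. Among all tested genes *Fos* ranked 17 by the unadjusted p. The gene lies on chromosome 12, 85473890 to 85477273 (mm10, plus strand), and its longest annotated transcript has 4 exons.

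*Fosb*, the close relative of *Fos*, had the highest log2 fold change of all 12517 tested genes. It had 6.66, 1.56 and 8.34 CPM in untreated 1 to 3 and 10.9, 74.0 and 151.1 CPM in treated 1 to 3. Treated 1 was thus only 1.31 times the highest untreated library, while treated 2 and 3 lay 13.4 and 27.4 times above the untreated mean. The lowest value rests on 7 counts in untreated 2, with an exact 95% Poisson interval of 2.81 to 14.4 counts that covers counting error only. The log2 fold change was 3.79 ± 0.98, with an adjusted p of 0.592 in edgeR and 0.00604 in DESeq2. It was 2.91 without treated 3, and without untreated 2 it was 3.38 in both edgeR and DESeq2, with a DESeq2 adjusted p of 0.0901. *Fosb* lies on chromosome 7, 19302696 to 19310051, minus strand.

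**Figure D1:**
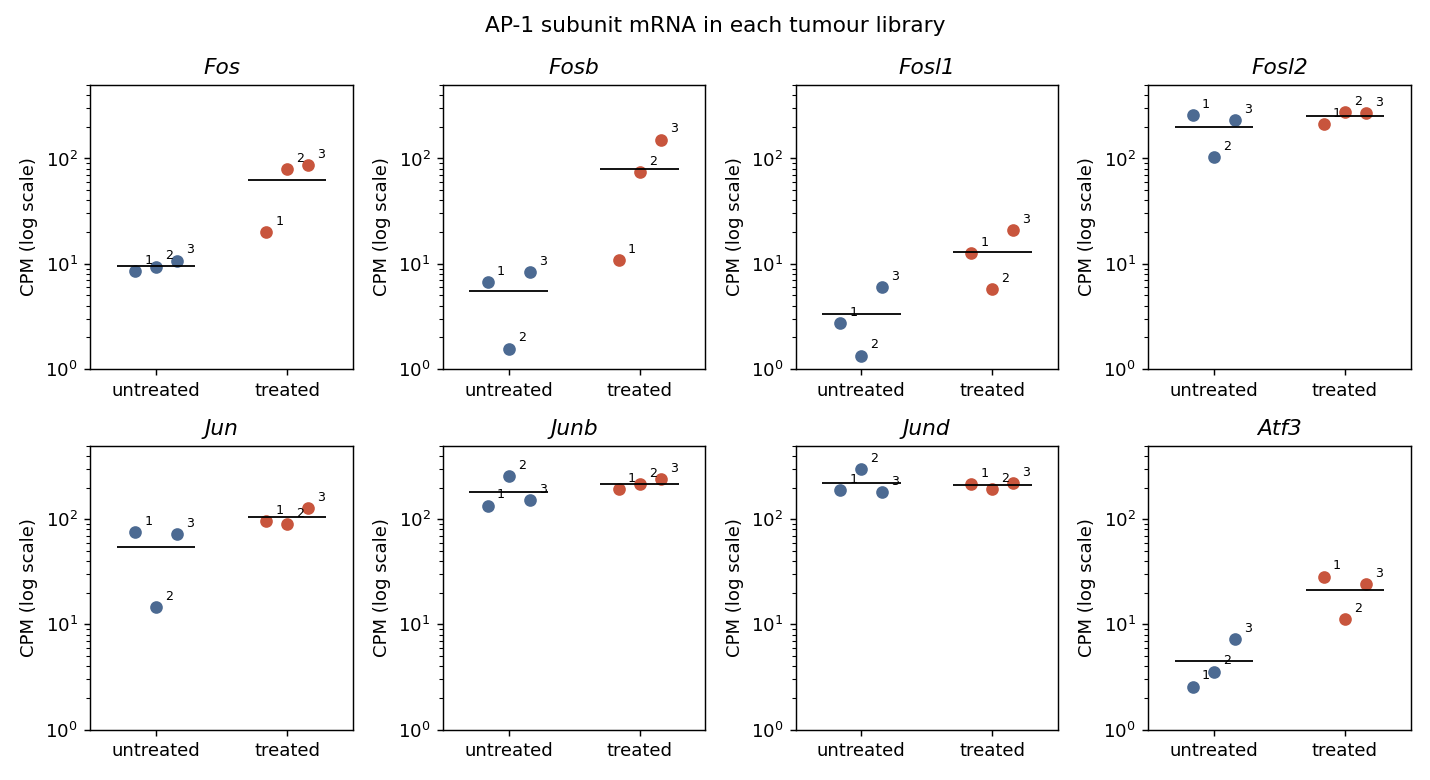
CPM of each AP-1 subunit (log axis) in the 3 untreated (blue) and 3 treated (red) libraries, with the replicate number beside each point and a line at the group mean. *Fos* and *Fosb* in treated 1 lie near the untreated range, at 19.8 and 10.9 CPM, and *Jun* in untreated 2 lies far below the other libraries, at 14.7 CPM.

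*Fosl1*, which codes for FRA-1, a Fos protein tied to invasive growth, had 2.72, 1.34 and 6.01 CPM in untreated 1 to 3 and 12.5, 5.71 and 20.9 CPM in treated 1 to 3. Treated 2 fell just under untreated 3, so the groups overlapped. The log2 fold change was 1.90 ± 0.64 (adjusted p 0.592 in edgeR, 0.196 in DESeq2). It ranged from 1.39 without treated 3 to 2.64 without untreated 3, and the unadjusted p in edgeR was 0.0879 without treated 3 and 0.0597 without untreated 1. Of the exonic bases of *Fosl1* (chromosome 19, 5447547 to 5455946, plus strand), 1163 are overlapped by *Ccdc85b* on the other strand. The strand setting of the counting is not given in the sources used here, so counts of the 2 genes may be shared. *Ccdc85b* had 38.3, 24.1 and 48.5 CPM in untreated 1 to 3 and 77.2, 55.6 and 99.8 CPM in treated 1 to 3, so its order within each group was that of *Fosl1*. Its log2 fold change was 1.07 ± 0.33.

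*Fosl2*, which codes for FRA-2, was per transcript length the most abundant Fos gene in the untreated tumours. It had 256.4, 103.8 and 231.9 CPM in untreated 1 to 3 and 212.7, 276.0 and 270.5 CPM in treated 1 to 3, and the groups overlapped. The log2 fold change of 0.36 ± 0.35 was 0.05 without untreated 2, the library with the low value. *Fosl2* lies on chromosome 5, 32135801 to 32157842, plus strand.

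*Jun*, the founding Jun gene, had 75.3, 14.7 and 72.4 CPM in untreated 1 to 3 and 95.5, 90.6 and 127.6 CPM in treated 1 to 3. The 3 treated values lay above all untreated ones, the lowest of them 1.20 times the highest untreated value. The fitted log2 difference was 0.94 ± 0.55 (adjusted p 0.61, edgeR) over 6 libraries and 0.50 ± 0.16 (adjusted p 0.233) without untreated 2. The larger of these differences therefore rests on the 66 counts of untreated 2. *Jun* is a gene of 1 exon on chromosome 4, 95049034 to 95052222, minus strand, and 689 of its bases are overlapped by the antisense gene *Junos*.

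*Junb*, a Jun gene known to restrain *Jun* in growth control, had 134.8, 256.0 and 150.8 CPM in untreated 1 to 3 and 192.2, 214.9 and 239.2 CPM in treated 1 to 3. Untreated 2 was above every treated library, and the other 2 untreated libraries were below every one. Over 6 libraries its log2 fold change was 0.26 ± 0.29, and over 5, untreated 2 left out, 0.59 ± 0.13, where DESeq2 called it (adjusted p 0.0105) and edgeR did not (0.227). It was 0.07 without untreated 1 and 0.14 without untreated 3. *Junb* lies on chromosome 8, 84974484 to 84978718, minus strand, and 173 of its exonic bases lie within the span of *Prdx2*.

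*Jund* had 190.6, 299.3 and 180.2 CPM in untreated 1 to 3 and 214.9, 193.8 and 220.3 CPM in treated 1 to 3. The treated tumours spread only 1.14-fold, the least of the 8 genes, and they overlapped the untreated range. Its log2 fold change was -0.09 ± 0.25 over 6 libraries and 0.17 ± 0.11 once untreated 2 was left out, so its sign is set by that library. *Jund* lies on chromosome 8, 70698949 to 70700616, plus strand, where 919 of its bases are overlapped by the antisense gene *Gm11175*.

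*Atf3*, a stress-induced bZIP gene that is known as a repressor as well as an activator, had 2.57, 3.57 and 7.24 CPM in untreated 1 to 3 and 28.4, 11.2 and 24.2 CPM in treated 1 to 3. The groups did not overlap, and the lowest treated value was 1.54 times the highest untreated one. *Atf3* had a log2 fold change of 2.22 ± 0.51, a 4.67-fold difference (adjusted p 0.592 in edgeR, 0.0172 in DESeq2). With 1 library left out it ranged from 1.93 without untreated 1 to 2.80 without untreated 3. The DESeq2 call held without untreated 2 (adjusted p 0.00552). *Atf3* lies on chromosome 1, 191170296 to 191218039, minus strand.

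**Figure D2:**
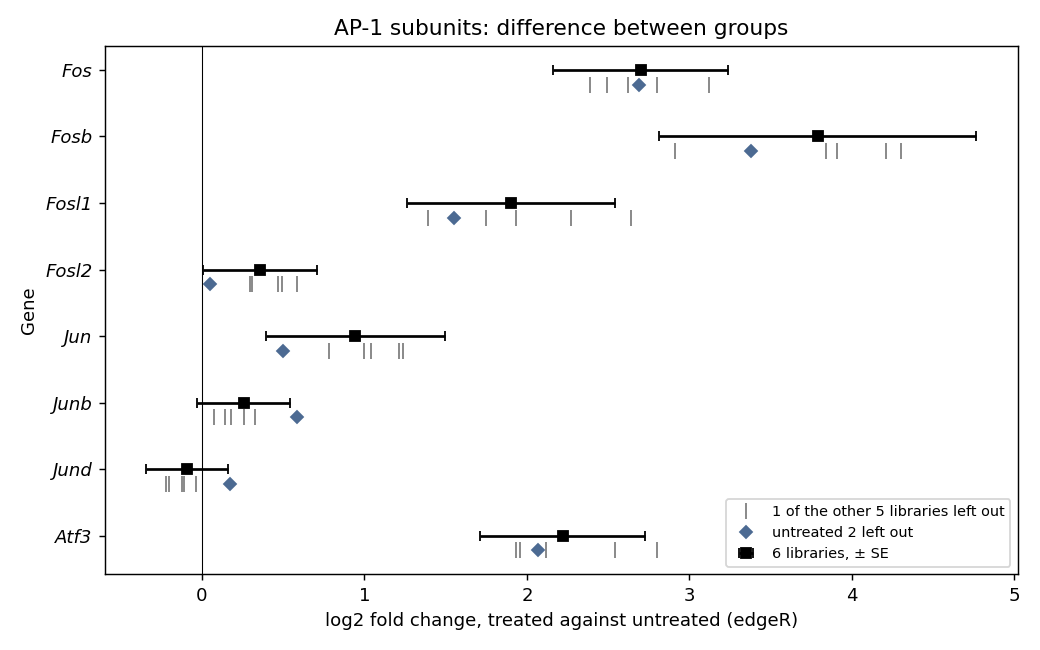
log2 fold change of each subunit between treated and untreated tumours in edgeR, with the SE over 6 libraries (square), and the same without untreated 2 (diamond) or without 1 of the other libraries (ticks). *Fos*, *Fosb*, *Fosl1* and *Atf3* stay at 1.39 or above whichever library is left out, whereas *Jund* moves from -0.09 to 0.17 without untreated 2.

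Across the 8 genes, 7 had a positive log2 fold change, against 49.9% of all tested genes, and the median was 1.42 against -0.0010. In edgeR 4 were higher before adjustment at the 0.05 level (*Fos*, *Fosb*, *Fosl1* and *Atf3*), against 3.32% of all tested genes, and 0 passed adjusted over all genes. DESeq2 called 3 higher (*Fos*, *Fosb* and *Atf3*), against 0.156% of the genes to which it gave an adjusted p. In 4 genes (*Fos*, *Fosb*, *Jun* and *Atf3*) the 3 treated values lay above all untreated ones, against 10.6% of all tested genes. Without untreated 2, 6 genes were higher at an unadjusted p under 0.05 (9.55% of all) and in 6 the groups did not overlap (19.6% of all). *Jun* and *Junb* joined the first count and *Junb* and *Jund* the second. DESeq2 on those 5 libraries called *Fos*, *Junb* and *Atf3* higher, against 1.01% of the genes to which it gave an adjusted p there. All 8 passed the filter on low counts, and the genes were chosen with earlier results of these data known, so these shares are descriptions.

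The 3 treated tumours differed in which subunits were high. Treated 1 had 2.09 times the untreated mean of *Fos* and 1.98 times that of *Fosb*, but 6.37 times that of *Atf3*, its highest ratio among the 8 genes. In treated 2 the order was the other way round, with 8.36 times the mean for *Fos*, 13.4 times for *Fosb* and 2.50 times for *Atf3*. Treated 3 was high in all of them, with 9.10, 27.4 and 5.44 times, and it was also the highest library for *Fosl1* (6.22 times) and *Jun* (2.36 times). *Hspa1b* is a heat-inducible chaperone gene whose counts can be split with its near-identical copy *Hspa1a*. *Hspa1b* had 18.9, 5.80 and 15.6 CPM in untreated 1 to 3 and 315.5, 23.5 and 63.5 CPM in treated 1 to 3. Treated 1 was thus highest in it as in *Atf3*, but in *Atf3* treated 3 was closer to treated 1 (24.2 and 28.4 CPM). Each of these profiles is that of 1 tumour, and the differences between treated tumours were not tested.

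**Figure D3:**
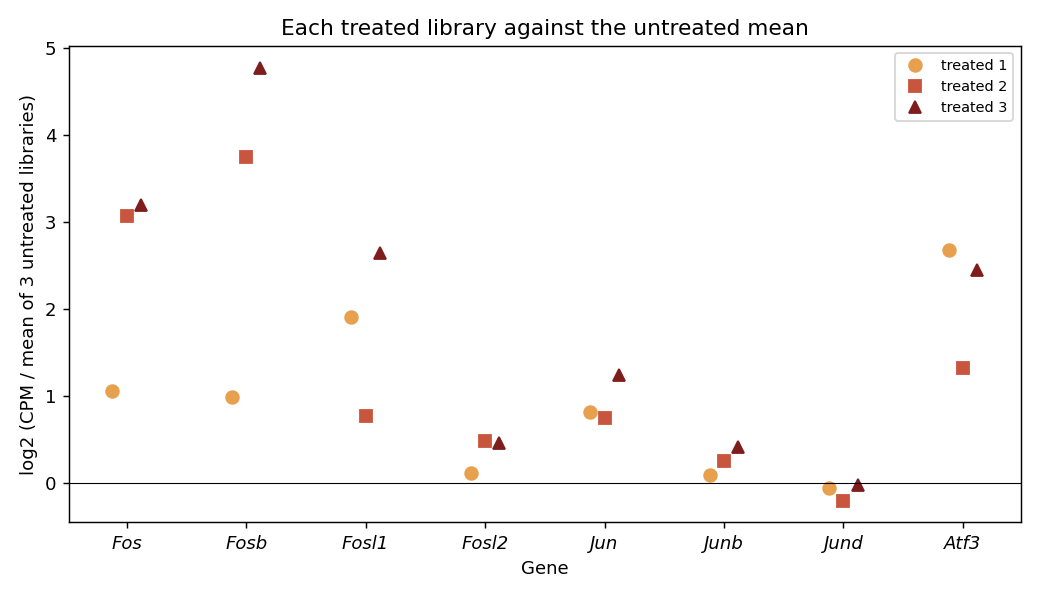
log2 ratio of each treated library to the mean of the 3 untreated libraries, for each AP-1 subunit. Treated 1 (circles) is lowest for *Fos* and *Fosb*, at 1.06 and 0.98, and highest for *Atf3*, at 2.67.

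Per length of the longest annotated transcript, *Jund* and *Junb* were the 2 most abundant subunits in each of the 6 libraries. *Jund* had 108.0 to 179.4 CPM per kb in untreated tumours and 116.2 to 132.1 in treated ones, and *Junb* had 74.5 to 141.5 and 106.2 to 132.2. They did not differ beyond their spread in treated tumours, where *Jund* ranked first in treated 1 and *Junb* in treated 2 and 3. With the length of all annotated exons joined in place of the longest transcript, *Jund* ranked first in every library. *Fosl2* followed with 15.9 to 39.2 CPM per kb in untreated tumours and 32.5 to 42.2 in treated ones, and *Jun* with 4.62 to 23.6 and 28.4 to 40.0. *Fos* stood at 4.02 to 5.06 CPM per kb in untreated tumours and 9.41, 37.7 and 41.1 in treated 1 to 3, so that it lay above *Jun* in treated 2 (28.4) and close to it in treated 3 (40.0). *Fosb* reached 39.9 CPM per kb in treated 3, from 0.413 to 2.21 in untreated tumours. *Fosl1* and *Atf3* were the least abundant in treated 2 and 3, and their highest values were 11.2 CPM per kb in treated 3 and 14.3 in treated 1. The order below *Junb* depends on the length used. With joined exons *Fosl2* had 21.98, 28.5 and 27.9 CPM per kb in treated 1 to 3, below *Jun* in treated 1 and 3 (29.9 and 40.0) and below *Fos* in treated 2 and 3 (33.8 and 36.8), and *Fosb* had 24.2 in treated 3.

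*Fos* and *Fosb* together made up 1.39% to 2.76% of the summed CPM per kb of the 8 genes in untreated tumours and 3.72%, 15.4% and 18.0% in treated 1 to 3. The 4 Fos genes made up 17.9%, 6.15% and 17.4% in untreated 1 to 3 and 15.6%, 27.6% and 29.7% in treated 1 to 3, so this share overlapped between the groups through treated 1. The sum over the 8 genes was 260.1, 348.8 and 263.7 CPM per kb in untreated 1 to 3 and 330.9, 371.6 and 450.1 in treated 1 to 3. The high sum of untreated 2 came from *Jund* and *Junb*, at 51.4% and 40.6% of it.

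**Figure D4:**
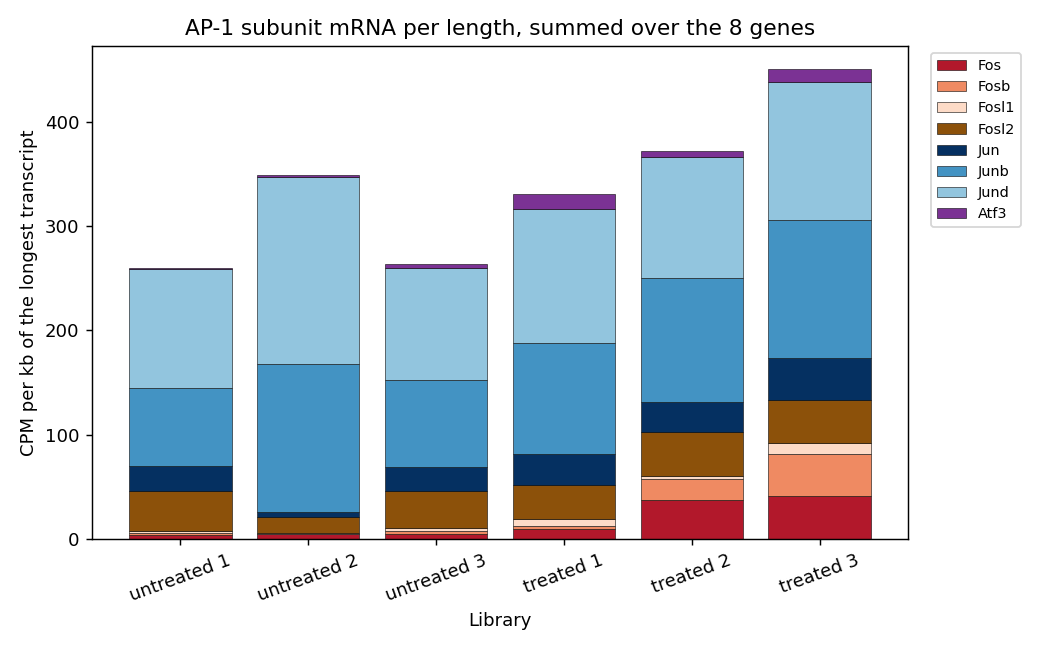
Stacked CPM per kb of the longest transcript for the 8 AP-1 subunits in each library, with bar height the sum. The share of *Fos* and *Fosb* (2 lowest segments) is 15.4% and 18.0% in treated 2 and 3 and at most 3.72% in the other libraries.

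Untreated 2 was not low in all subunits. Against the mean of untreated 1 and 3 it lay at -2.30 log2 in *Jun*, -2.06 in *Fosb*, -1.41 in *Fosl1* and -1.23 in *Fosl2*, and at 0.843 and 0.69 in *Junb* and *Jund*. *Junb* and *Jund* have the most GC-rich transcripts of the 8, at 62.6% and 67.2% GC, the 98.9 and 99.9 percentiles of tested genes. A smooth trend of that library with GC content and length placed genes like them at -0.44 and -0.48. The trend was taken against the mean of all libraries, so its size cannot be compared directly with these deviations. The sign of their deviation was thus opposite to that of the trend. *Fos* and *Atf3*, at 51.9% and 52.2% GC, lay at -0.02 and -0.265 log2 from the mean of untreated 1 and 3. Their trend values were -0.03 and -0.02. With the trend removed from each library, the log2 fold change was 2.66 for *Fos*, 3.60 for *Fosb*, 2.19 for *Atf3* and 1.79 for *Fosl1*. The same correction gave 0.87 for *Jun* (unadjusted p 0.048, adjusted p 0.396 in edgeR), 0.0046 for *Fosl2*, -0.01 for *Junb* and -0.38 for *Jund*. *Fosl2* lay in untreated 2 at -1.23 from the other untreated libraries. Its trend value was also -1.23, but against the mean of all libraries, so the equal values cannot be compared directly. With the trend removed, the log2 fold change of *Fosl2* went from 0.36 ± 0.35 to 0.0046 ± 0.16.

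Genes around AP-1 were taken from 5 lists chosen with earlier results of these data known, and no list gene passed edgeR's test over all genes. Of the bZIP partners and relatives, 17 of 20 were tested. Of these 11 were higher, against 49.9% of all tested genes, and 6 lower. The median log2 fold change was 0.28 against -0.0010 for all genes. The median was 0.12 without untreated 2. Before adjustment 2 of the 17 were higher, against 3.32% of all tested genes, and 0 lower, and DESeq2 called 0. The 2 were *Nfil3*, a bZIP repressor (27.7 ± 1.96 CPM with treatment against 13.2 ± 3.90 CPM without, SD, n = 3, adjusted p 0.592 in edgeR), and *Maff*, a small Maf protein (17.0 ± 4.65 against 9.62 ± 2.34 CPM). *Nfe2l2*, which codes for NRF2, lay in the other direction (93.7 ± 12.2 against 131.6 ± 39.1 CPM), with 176.1 CPM in untreated 2.

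Of the MAP kinases and SRF factors that act upstream of *Fos* and *Jun*, 12 of 19 tested were higher and 7 lower. Of all tested genes 49.9% were higher, and the median of the list was 0.06. Only *Srf*, the factor that binds the CArG box, was at an unadjusted p under 0.05 (1 of 19, against 3.32% of all tested genes), with 94.5 ± 9.79 CPM against 59.9 ± 13.2 CPM. DESeq2 called 0 of this list. *Map2k3*, a kinase of p38, had 75.7 ± 10.2 against 57.1 ± 8.17 CPM, and *Mapk8*, which codes for JNK1, the kinase that phosphorylates Jun, had 51.5 ± 5.51 against 85.9 ± 40.1 CPM, with 132.1 CPM in untreated 2.

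The list of mRNA decay and protein turnover held 4 higher and 4 lower genes of 8 tested (median -0.04). Among all tested genes 49.9% were higher. *Zfp36*, which codes for tristetraprolin and speeds the decay of AU-rich mRNAs, had 64.0 ± 20.6 CPM against 25.3 ± 11.9 CPM, the 1 gene of the 8 higher at an unadjusted p under 0.05, against 3.32% of all tested genes. None of the list was a DESeq2 call (0 of 8). *Zfp36l2*, its relative, had 254.6 ± 8.27 against 230.6 ± 77.0 CPM, and the untreated mean was 274.1 CPM without untreated 2 (143.5 CPM), which turns the sign. *Rfwd2*, the ubiquitin ligase COP1 that marks Jun for breakdown, had 93.8 ± 16.2 against 133.5 ± 44.4 CPM, with 183.4 CPM in untreated 2.

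Of the known AP-1 target genes, 18 of 21 tested were higher, against 49.9% of all tested genes, and 3 lower. Their median log2 fold change was 0.83 against -0.0010 for all genes. At an unadjusted p under 0.05, 6 of the 21 were higher (3.32% of all tested genes) and 0 lower (4.85%). In 9 the treated values lay above all untreated ones (10.6% of all). DESeq2 called *Mmp13* alone (adjusted p 0.000439), against 0.156% of the genes to which it gave an adjusted p. It gave none to *Areg* and *Il11*. *Mmp13*, a collagenase whose promoter holds a well-known AP-1 element, had 6.81, 14.95 and 12.1 CPM in untreated 1 to 3 and 71.3, 39.0 and 42.9 CPM in treated 1 to 3. *Spp1*, which codes for osteopontin, had 317.1 ± 69.7 against 394.5 ± 179.5 CPM, but the untreated mean was 301.0 CPM without untreated 2 (581.3 CPM), so the sign of its difference is set by that library. Without untreated 2, 14 of the 21 were higher at an unadjusted p under 0.05, where 9.55% of all genes were, with a median of 0.62.

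Of the other immediate early genes 16 of 18 were higher, against 49.9% of all tested genes, with a median of 0.89. Before adjustment 9 were higher (3.32% of all) and 0 lower. DESeq2 called *Cyr61* and *Dusp1*, against 0.156% of the genes to which it gave an adjusted p, and it gave none to *Nr4a3*. *Cyr61*, which codes for the matrix protein CCN1, had 112.99, 138.4 and 113.8 CPM in untreated 1 to 3 and 383.1, 328.9 and 459.5 CPM in treated 1 to 3, and the groups did not overlap. *Dusp1*, a phosphatase that acts on MAP kinases, had 16.5, 14.5 and 20.2 CPM in untreated 1 to 3. It had 36.5, 57.5 and 82.2 CPM in treated 1 to 3. Of these treated 1 was lowest, as in *Fos*, at 1.8 times the highest untreated value. *Klf10* lay in the other direction, with 74.2 ± 22.3 CPM against 122.1 ± 51.8 CPM, and with 181.6 CPM in untreated 2. Without untreated 2 its untreated mean was 92.4 CPM, below the 99.4 CPM of treated 1. With that library left out, 15 of the 18 listed genes were higher, with a median of 0.67 against 0.000795 for all genes. At an unadjusted p under 0.05 in edgeR, 10 of the 18 were then higher, where 9.55% of all genes were.

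**Figure D5:**
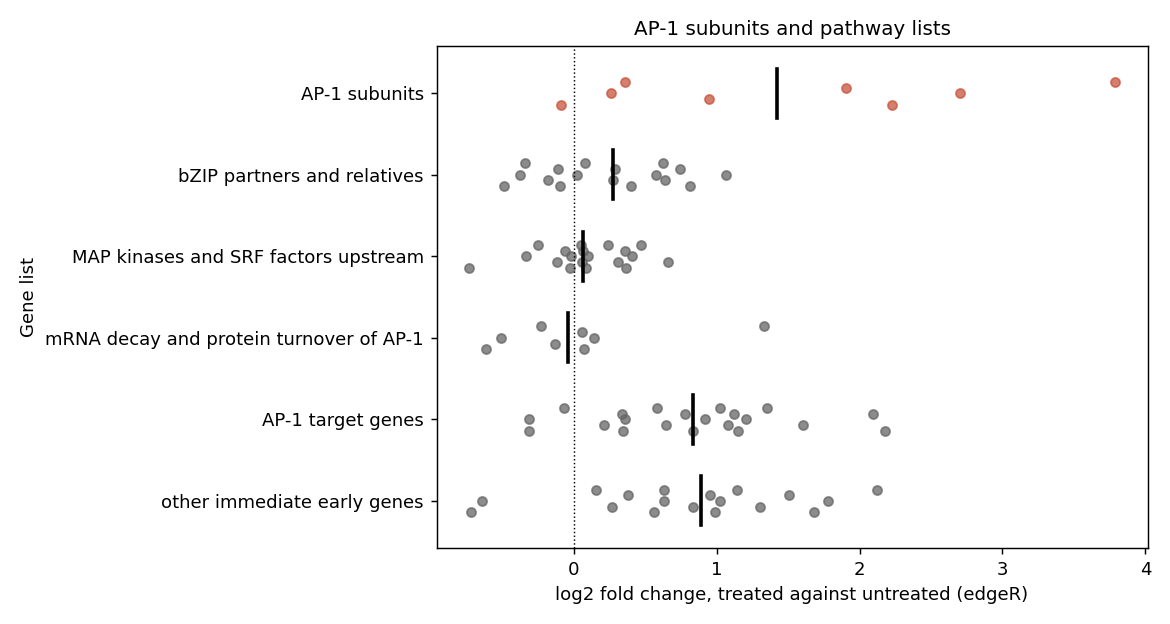
log2 fold change (edgeR) of each tested gene in the AP-1 subunits (red) and in 5 lists of genes around them (grey), with a bar at each list's median and a dotted line at the median of all tested genes. Medians are 0.83 for AP-1 target genes and 0.89 for other immediate early genes, and -0.04 to 0.28 for the other 3 lists.

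The genes most like a subunit over the 6 libraries were sought by Pearson's r of log2 CPM among 10429 other genes, as a description. For *Fos* they were *Serpine2* (0.991), *Tnn* (0.985) and *Rhoj* (0.983). *Tnn*, a tenascin of the matrix, had 6.05, 5.58 and 8.34 CPM in untreated 1 to 3 and 9.83, 48.8 and 39.5 CPM in treated 1 to 3, with treated 1 close to the untreated range as in *Fos*. For *Fosb* the first was *Ier2*, an immediate early gene (0.993), followed by *Akap12* (0.993) and *Nbl1* (0.991). For *Fosl1* they were *Cdc20* (0.998), *Blm* (0.997), *Nob1* (0.994) and *Wdr70* (0.994), the first an activator of mitotic exit and the second a DNA helicase. *Jun* was most like *Cdr2l* (0.999), *Nes* (0.999), *Olfm1* (0.998) and *E2f8* (0.998), which share its low value in untreated 2. *Nes*, which codes for nestin, had 220.3 CPM there and 388.1 to 487.0 CPM in the other libraries. *Atf3* was most like *Ctps* (0.996), *Lrrfip1* (0.996), *C1qbp* (0.994) and *Eef1g* (0.994), and *Eef1g*, a translation elongation factor, had 628.5 to 709.5 CPM in untreated and 749.8 to 878.9 CPM in treated tumours. With 6 points that share the groups and untreated 2, a high r is reached by many genes.

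Markers of other cells also had different levels in the libraries. In bulk tumours fewer cells of a type and less RNA per cell cannot be told apart. Of 8 tested macrophage markers 1 was higher, and their summed level was 891.8 to 1505 CPM in untreated and 379.5 to 711.5 CPM in treated tumours. Of 7 neutrophil markers 6 were found, all 5 tested ones were higher, and they summed to 13.6 to 47.0 CPM in untreated and 36.0 to 85.5 CPM in treated tumours, with *Retnlg* at 0 in untreated 1 and 2. The 7 keratinocyte markers summed to 1174, 599.2 and 5.89 CPM in untreated 1 to 3 and 4.90 to 60.5 CPM in treated tumours, and *Krt5* and *Krt14* were at 0 in untreated 3 and treated 2. The 6 skeletal muscle markers summed to 23.7 to 81.1 CPM in untreated and 22.5, 8.98 and 331.7 CPM in treated 1 to 3, the last being the library highest in *Fos* and *Fosb*. The 5 endothelial markers summed to 77.7 to 145.6 and 118.2 to 180.9 CPM, the 5 mast cell markers to 19.6 to 63.2 and 8.45 to 14.5 CPM, and the 5 T cell markers to at most 6.35 CPM, with *Cd3e* at 0 in every library. The part of these cells in the subunits' values was not tested.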

How the data were processed

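Per the labels' protocols, the libraries came from Trizol-extracted total RNA and a directional kit. TopHat and mm10 are named in the submitters' processing notes. How reads were counted, with which strand setting and annotation, is not given in the sources used here. The values are raw counts, deposited by the authors as a table for each sample, over 23183 symbols.

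With edgeR 4.0.16 (R 4.3.3), filterByExpr at a minimum count of 10 kept 12517 genes. Counts were scaled with TMM (factors 0.960 to 1.02) and tested with the 2-sided quasi-likelihood test, adjusted by Benjamini-Hochberg over the whole table. For single values, 3 against 3, no exact permutation p can be under 0.1. The SE is the log2 fold change divided by the root of F. Log2 CPM used a prior count of 2. Alternatives, listed in the closing section, used DESeq2 1.42.0, limma 3.58.1 and a loess trend (span 0.3) with GC content and length from GENCODE M21, whose coordinates are on mm10. DESeq2 gave an adjusted p to 11539 genes. Steps were tested on simulated data. No 2 libraries agreed within sampling noise (chi-square per gene 5.64 or more).

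The subunits, the lists and the tests were chosen with earlier results of these data known. The text names all 8 subunits, the 2 genes per list with the smallest p above 0 and the 1 below, and the 4 genes most like each of 5 subunits, passing over unnamed models, pseudogenes and small RNAs, with a mean of at least 5 CPM. Some genes that this rule names are not reported here. *Hspa1b* and *Ccdc85b* were named after their values were seen.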

Additional observations from a re-analysis of the deposited data

How the results depend on the processing

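Over 19 alternatives *Fos*, *Fosb*, *Fosl1*, *Fosl2*, *Jun* and *Atf3* kept a positive log2 fold change, down to 0.0046 for *Fosl2* with the GC and length correction, and none of the 8 subunits passed in an edgeR or limma fit. With DESeq2, *Fos* (2.69), *Fosb* (3.81) and *Atf3* (2.22) passed, as did 18 genes higher and 39 lower. With DESeq2 and untreated 2 left out, *Fos* (2.69), *Junb* (0.59) and *Atf3* (2.09) passed, *Jund* lay at 0.17, 115 genes were higher and 158 lower, and 1124 and 930 were at an unadjusted p under 0.05. With the GC and length correction *Junb* lay at -0.01 (-0.0126), 738 genes were higher before adjustment, and 2 genes of the decay and turnover list had a positive value. Chosen after seeing the data were limma-voom with sample weights (*Jund* 0.17, 1 gene higher and 1 lower, 1435 and 1285 unadjusted), the GC correction without untreated 2 (*Jund* 0.15, 1 gene higher, 1241 and 961 unadjusted) and the GC correction with the replicate block (805 higher unadjusted). The cause was not tested. Leaving out each library in turn, genes at an unadjusted p under 0.05 ranged from 89 to 1226 higher and 224 to 1136 lower, 0 to 4 were lower at an adjusted p under 0.05, and *Jund* ranged from -0.22 to 0.17. The 2 lowest of these counts were without treated 3, the 2 highest without untreated 2, and the 4 called genes without untreated 3. Subunits higher at an unadjusted p under 0.05 ranged from 3 to 6. The deviations of same-numbered libraries from their group means correlated at -0.179, -0.115 and 0.0929, and no library correlated best with its own number. With 3 libraries per group and untreated 2 far from the others, these correlations cannot decide whether the replicate numbers pair the samples. With the replicate block *Fos* lay at 2.47 (adjusted p 0.578) and 0 genes were called. Other scalings (DESeq2 size factors, upper quartile, plain totals), no filter and a minimum of 5 CPM changed no sign or call of a subunit. The depth limits *Fosb*, *Fosl1* and *Atf3* in untreated 2, which had 7, 6 and 16 counts.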
